A study of Mus musculus with 2 samples.

Results

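The growth factors that make and feed macrophages, neutrophils and dendritic cells were followed here through the cells of mouse pancreatic tumours. The set was 6 genes chosen by symbol from the 32285 genes in the count tables, and all 6 had a row: the ligands Csf1, Il34 and Csf2 and the receptor genes Csf1r, Csf2ra and Csf2rb. The rule took rows by name, not by value, though the members were chosen with earlier results of these data known. KPC cells, a line from a mouse model of pancreatic cancer with a Pdx-1-Cre driver that acts in the pancreas, had been placed in the pancreas of mice after lentiviral transfer of a control construct (KPC-shV) or of a hairpin against Zeb1 (KPC-shZEB1). A tumour of each kind, 1 per group, was dissociated and its RNA measured cell by cell with 10x Chromium 3' chemistry, which counts unique molecular identifiers (UMIs), each standing for 1 captured RNA molecule. The study's text says that the mice whose tumours were sequenced had been treated with gemcitabine, in both groups, which the sample labels do not mention. It used C57BL/6J, BALB/c and NSG mice of both sexes, a few weeks old. It takes the sequenced tumours from an experiment that it describes as done in immunocompetent mice. The strain and sex of these hosts, and the selected line, are not given in the sources used here.

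Macrophage colony-stimulating factor, the product of Csf1, and interleukin-34, the product of Il34, are separate ligands of the same receptor tyrosine kinase, encoded by Csf1r, on which monocytes and macrophages depend for survival and growth. Granulocyte-macrophage colony-stimulating factor, the product of Csf2, binds a receptor made of a specific alpha chain, encoded by Csf2ra, and a common beta chain, encoded by Csf2rb, which interleukin-3 and interleukin-5 receptors share. Pancreatic tumour cells, fibroblasts and activated lymphocytes are known sources of such factors, and myeloid cells are their main targets.

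There was 1 library per group, so no difference between the libraries has a replicate check. Every interval below is an exact 95% interval that covers counting error only, and mouse, tumour, dissociation, library and group cannot be told apart. After filtering, 11398 cells were kept from the KPC-shV-labelled library and 12104 from the KPC-shZEB1-labelled library, with a median of 3720 and 4252 UMIs per cell, and the libraries shared 36 kept cell barcodes, which is 0.316% and 0.297% of their cells. Cells were clustered without the 6 genes and named from marker lists, and of 99 markers in 14 lists 88 had their highest level in the class they name. Of 8 granulocyte markers 4 did not, and these were highest in an unnamed cluster led by the acinar genes Pnlip and Try4, with 6 cells of the KPC-shV-labelled library and 262 of the KPC-shZEB1-labelled library. A further unnamed cluster of 476 and 176 cells, led by Prg4 and Grem1, is given apart from the tumour-like cells. Zeb1, the target of the hairpin, stood at 133 CPM (UMIs scaled to the total of the class) in tumour-like cells of the KPC-shV-labelled library and at 175 in those of the KPC-shZEB1-labelled library, a ratio of 1.31 (95% interval 1.25 to 1.38), which goes against the label, so the groups are called by their labels. Zeb1 was higher in T and NK cells, at 1264 and 1445 CPM, and these made up 4.11% and 12.1% of the kept cells. Over all kept cells its ratio was 1.39 (1.37 to 1.42). The part that RNA from other cells has in the tumour-like Zeb1 levels was not tested. Tumour-like cells are named from epithelial markers and may hold duct cells of the host. The study also measured how far Zeb1 was knocked down in KPC cells and stained tumour tissue for Zeb1, which these counts do not cover.

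Levels are CPM, the usual scaling of a gene's UMIs to the total of its class, and ratios divide the level in the KPC-shZEB1-labelled library by that in the KPC-shV-labelled one. They are compared between classes and libraries, not between genes, since CPM is not per length. Over all kept cells, Csf1 stood at 246.9 CPM in the KPC-shV-labelled library and 166 in the KPC-shZEB1-labelled library, and Csf1r at 96.6 and 154. These whole-library values move with the share of each class: granulocyte-like cells made up 60.2% of the first library and 35.6% of the second, and monocyte-macrophage-like cells 14.9% and 21.1%. Everything that follows is therefore given within classes.

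**Figure D1:**
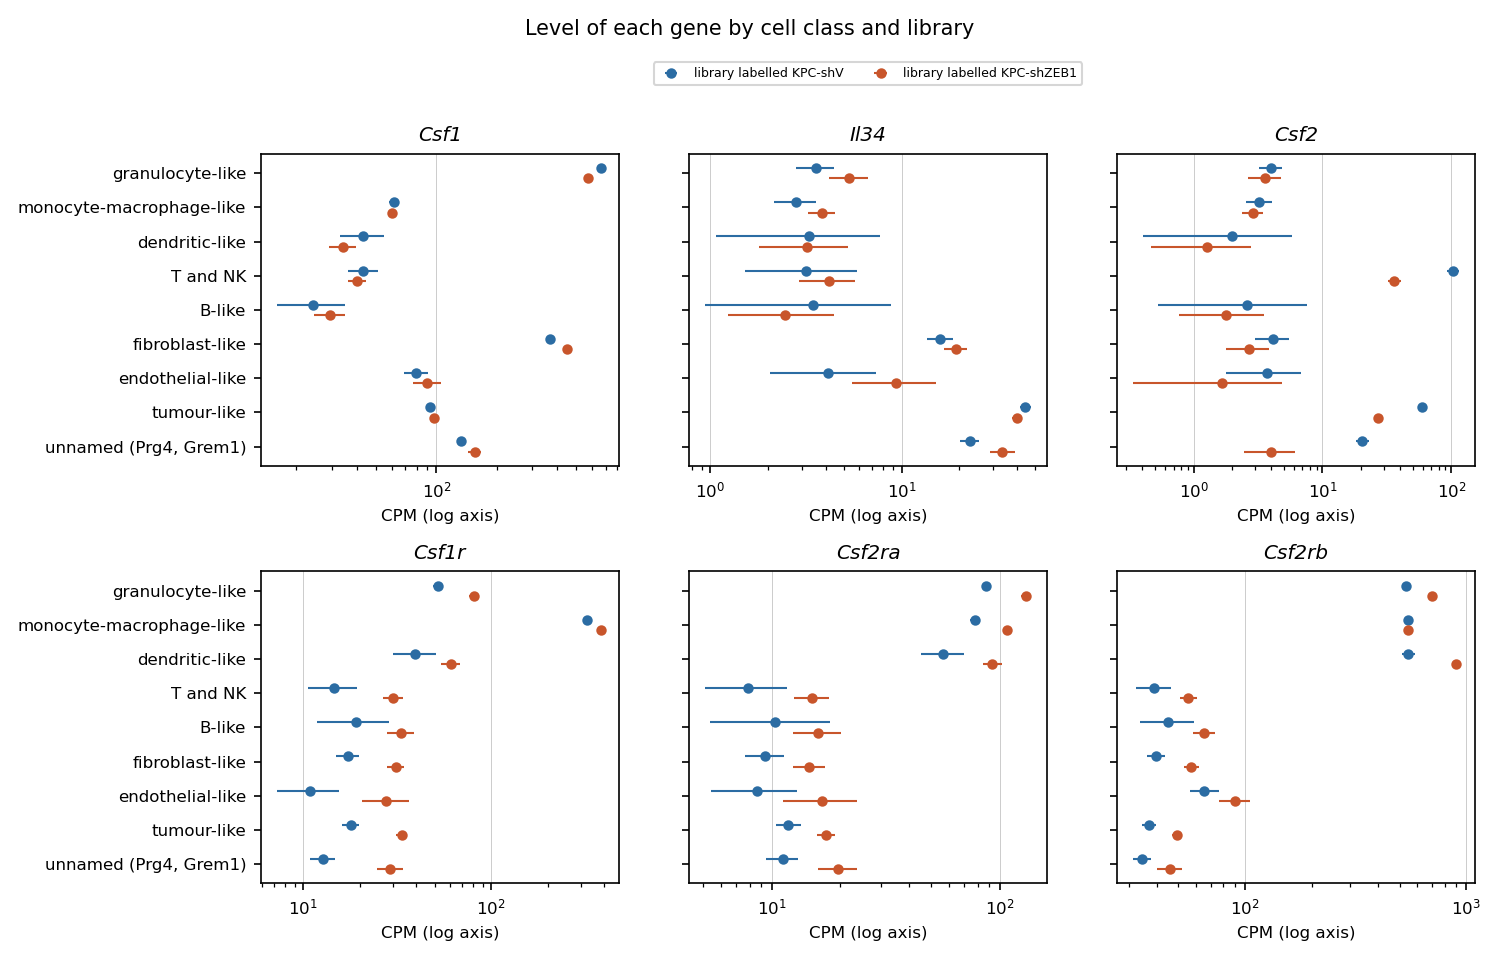
Level of each of the 6 genes in CPM (log axis) in 9 cell classes, with blue points for the KPC-shV-labelled library, orange points for the KPC-shZEB1-labelled library, and bars for exact 95% intervals of the count. Csf1 is highest in granulocyte-like cells, Csf2 in T and NK cells, Il34 in tumour-like cells among these 9 classes, Csf1r in monocyte-macrophage-like cells, and the GM-CSF receptor genes are highest in the 3 myeloid classes.

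Csf1 (ENSMUSG00000014599, GRCm38 chromosome 3, 107741048 to 107760469, minus strand) was most abundant in granulocyte-like cells among the 9 classes with at least 30 cells in each library, with 664 CPM (653 to 674) in the KPC-shV-labelled library and 572 (559 to 585) in the KPC-shZEB1-labelled library. Fibroblast-like cells came next, at 368 (357 to 380) and 449 (437 to 462). Granulocytes are mostly known as cells that respond to growth factors, and here their Csf1 level was above that of fibroblast-like cells in both libraries, with intervals that did not overlap. The unnamed cluster led by Prg4 and Grem1 held 132 and 155 CPM, tumour-like cells 93.4 and 97.7, and endothelial-like cells 79.5 and 90.02, where the tumour-like and endothelial-like intervals overlapped in both libraries. Monocyte-macrophage-like cells, the main bearers of the receptor, held 61.4 and 60.1. B-like cells were lowest of the larger classes, at 24.1 and 29.3, and serve as the background level here. By that choice the other larger classes lie above it.

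The ratio between the libraries went in different directions in the main Csf1 classes. In granulocyte-like cells it was 0.86 (0.84 to 0.89), in fibroblast-like cells 1.22 (1.17 to 1.27) and in tumour-like cells 1.05 (0.99 to 1.11), where the interval includes 1 and 4 of 12 alternatives gave a value below 1, down to 0.90. None of these class ratios passed 1.5-fold. The share of granulocyte-like cells with at least 1 Csf1 UMI was 58.9% (6864 cells, median 3147 UMIs) in the KPC-shV-labelled library and 53.7% (4310 cells, median 2911 UMIs) in the KPC-shZEB1-labelled library, and 35.2% and 31.9% once every cell was reduced at random to 1000 UMIs (thinned). In B-like cells, the background class, the same thinned shares were 3.11% and 2.61%, at median depths of 3732 and 3417.5 UMIs.

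Granulocyte-like cells fell into several clusters, 4 of them large, and Csf1 differed among these. The cluster led by Abca13, Med12l and Mmp9, which also carried Siglecf, held 928 CPM in the KPC-shV-labelled library and 691 in the KPC-shZEB1-labelled library. That led by Rdh12, Cxcr2 and G0s2 held 508 and 343, the lowest of the 4 large clusters in each library. The ratio was below 1 with its interval in each of the 4 large clusters, at 0.93 (0.87 to 0.98) in the cluster led by Mreg, 0.67 (0.63 to 0.72) in that led by Rdh12, 0.75 (0.71 to 0.78) in that led by Abca13 and 0.78 (0.71 to 0.86) in that led by Rsad2 and Ifit1. The Abca13 cluster, highest in Csf1, held 1200 of the granulocyte-like cells of the KPC-shV-labelled library and 2043 of those of the KPC-shZEB1-labelled library. With the clusters weighted alike in both libraries, an alternative added after the data were seen, the class ratio was 0.79.

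Tumour-like clusters also went opposite ways for Csf1. The cluster led by Ugt2b5 and Spink4 held 99.7 and 121 CPM, a ratio of 1.22 (1.12 to 1.32). Cells of the cluster led by Lypd8 and Lama3 held 87.0 and 60.4, a ratio of 0.69 (0.62 to 0.78). The class ratio near 1 thus joined clusters that differed in direction. Within the macrophage-like cells, the sub-cluster led by Gpnmb and Mmp8, which also carried the lysosomal genes Ctsl and Atp6v0d2, held 127 (113 to 142) and 151 (140 to 164) CPM of Csf1. In the Lyve1 sub-cluster it was 69.4 and 55.0.

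Small classes held Csf1 as well, and their values rest on few cells. The pericyte-like class had 14 and 10 cells with 149 and 161 CPM. The mast or basophil-like class had 7 and 45 cells with 784 and 150, but 74 of the 81 UMIs in the KPC-shV-labelled library came from 1 cell. The ratio was 0.19 (0.14 to 0.26). The unnamed cluster led by Pnlip and Try4 held 466 CPM (417 to 519) of Csf1 in the KPC-shZEB1-labelled library, from 262 cells. That interval overlapped the fibroblast-like one. From the other library it had 8 Csf1 UMIs in 6 cells. In the KPC-shZEB1-labelled library it also held 637 CPM of Csf2rb and 117 of Csf2ra. It is not counted as granulocyte-like here.

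Il34 (ENSMUSG00000031750, chromosome 8, 110741829 to 110805924, minus strand) was an epithelial and stromal transcript at low level, and 2 antisense genes, Gm15894 and Gm15895, lie within its span. Tumour-like cells held 44.4 CPM (41.5 to 47.3) in the KPC-shV-labelled library and 39.9 (37.7 to 42.3) in the KPC-shZEB1-labelled library. The unnamed cluster led by Prg4 and Grem1 held 22.6 and 33.6 and fibroblast-like cells 15.9 and 19.3. Pericyte-like cells had the highest level of all, 229 (173 to 297) and 155 (103 to 224), from 57 and 28 UMIs in 14 and 10 cells, and 14 of 14 and 8 of 10 of those cells had an Il34 UMI. In granulocyte-like, monocyte-macrophage-like, dendritic-like, T and NK and B-like cells the level was between 2.46 and 5.31 in each library, and neighbours in that order had overlapping intervals. Endothelial-like cells held 4.10 and 9.39.

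Over all kept cells Il34 was at 16.3 and 15.8 CPM, a ratio of 0.97 (0.91 to 1.04) whose interval includes 1. In tumour-like cells the ratio was 0.90 (0.82 to 0.98), while the 2 largest tumour-like clusters gave 1.08 (0.95 to 1.23) in the one led by Ugt2b5 and 1.02 (0.89 to 1.17) in the one led by Lypd8. The cluster led by Zfp804b and Ralyl was low in Il34, at 10.3 and 15.3, and supplied 9 cells of the KPC-shV-labelled library and 231 of the KPC-shZEB1-labelled library. With clusters weighted alike the tumour-like ratio was 1.08, and 5 of 12 alternatives put it above 1, between 1.01 and 1.10, so that no direction is read from it.

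Csf2 (ENSMUSG00000018916, chromosome 11, 54247271 to 54249667, minus strand, with the antisense gene Gm12223 over it) was found mainly in lymphocytes and tumour-like cells. T and NK cells held 103 CPM (91.8 to 114) in the KPC-shV-labelled library and 36.2 (32.3 to 40.4) in the KPC-shZEB1-labelled library. Tumour-like cells held 59.2 (56.0 to 62.6) and 26.8 (24.9 to 28.7). All larger myeloid classes, B-like, fibroblast-like and endothelial-like cells lay between 1.28 and 4.12 CPM, and B-like cells, taken as the background, stood at 2.59 and 1.79.

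Both sources had a lower Csf2 level in the KPC-shZEB1-labelled library. The ratio was 0.35 (0.30 to 0.41) in T and NK cells and 0.45 (0.41 to 0.50) in tumour-like cells. Over 12 alternatives the tumour-like ratio lay between 0.41 and 0.56. In T and NK cells, 2.4% of 10944 genes with at least 50 UMIs over both libraries were 1.5-fold or more lower, and Csf2 was the 1 of 5 members tested there that was. In tumour-like cells 3.68% of 14557 genes were that much lower, and Csf2 was again the 1 member, of 6, while 12.6% were that much higher, among them Csf1r. The unnamed cluster led by Prg4 and Grem1 held 20.4 and 3.98, but its 281 and 21 UMIs were concentrated, since 5 cells held 78.6% of the UMIs in the KPC-shV-labelled library and 1 cell held 120.

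Few T and NK cells had any Csf2, and in the KPC-shV-labelled library 5 cells carried most of it. Of 468 T and NK cells in the KPC-shV-labelled library, 37 (7.91%, at a median depth of 5486.5 UMIs) had a Csf2 UMI, and the top 5 held 66.2% of the 325 UMIs. Of 1467 in the KPC-shZEB1-labelled library, 73 (4.98%, at a median of 4947 UMIs) had one, and 5 held 35.0% of the 323 UMIs. Without those 5 cells in each library, an alternative added after the data were seen, the ratio moved from 0.35 to 0.67. After thinning to 1000 UMIs the shares of cells with Csf2 were 3.42% and 1.84%, against 0 of 289 and 0 of 1226 B-like cells, which allows up to 1.27% and 0.3004% by the upper exact 95% bound.

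The lymphocyte Csf2 sat in few sub-clusters. A CD4 T-like sub-cluster led by Dgki and Hs6st3, with Csf2 among its leading genes although Csf2 was kept out of the clustering, held 816 CPM (711 to 931) from 38 cells of the KPC-shV-labelled library and 259 (219.9 to 303) from 85 cells of the KPC-shZEB1-labelled library, and 9 and 23 of its cells had a UMI, with 114 UMIs in 1 cell of the first library. ILC2-like cells, innate lymphoid cells that make Il5, held 224 (103 to 426) from 7 cells and 609 (462 to 789) from 19 cells, the opposite direction. Gamma-delta T-like cells led by Cd163l1 and Il17a held 508 from 8 cells and 13.5 from 13 cells, with 21 UMIs and 1 UMI. The NK-like sub-cluster led by Gzmc held 106 (63.7 to 165) and 128 (93.0 to 172). In the CD8 T-like sub-clusters, Csf2 was at 74.8 and 5.39 in the one led by Gm156 and Atp2b2, where 2 cells held all 22 UMIs of the KPC-shV-labelled library.

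**Figure D2:**
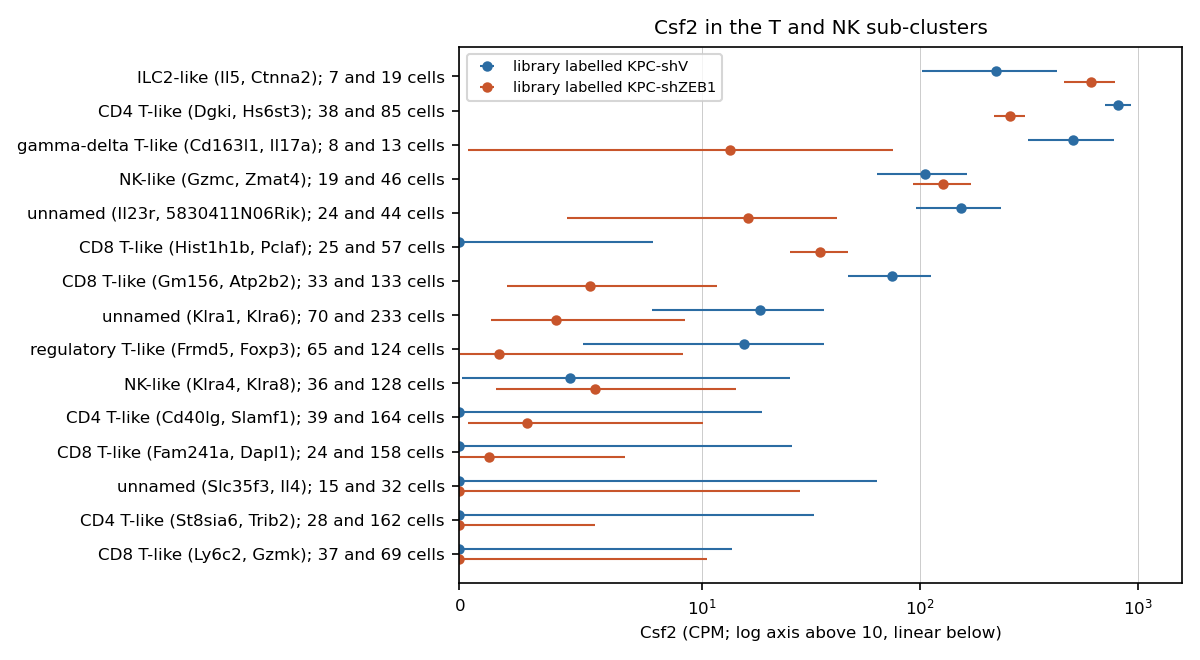
Csf2 in CPM in the T and NK sub-clusters, named by class and leading genes, with the number of cells in the KPC-shV-labelled and KPC-shZEB1-labelled libraries; the axis is linear below 10 and log above, and bars are exact 95% intervals of the count. The Dgki sub-cluster is at 816 and 259, ILC2-like cells are at 224 and 609, and the sub-clusters at the bottom lie near 0 in both libraries.

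Tumour-like Csf2 was less concentrated and was lower in both of the largest clusters. The cluster led by Lypd8 and Lama3 held 77.8 and 42.8 CPM, a ratio of 0.55 (0.49 to 0.62). The cluster led by Ugt2b5 and Spink4 held 51.6 and 25.8, a ratio of 0.50 (0.43 to 0.58). The shallow cluster led by S100a14 and Dbf4 held 25.3 and 24.4, with a ratio whose interval, 0.57 to 1.65, included 1. The Zfp804b cluster was low, at 9.02 in the KPC-shZEB1-labelled library, which supplied 231 of its cells beside 9 from the other library. The class ratio therefore moves with the share of this cluster as well. Of tumour-like cells, 19.5% (median 20844 UMIs) and 17.4% (median 23826 UMIs) had a Csf2 UMI, and 4.07% and 2.64% after thinning.

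Adding up molecules gives the sources in each tumour sample as sampled. Granulocyte-like cells held 60.7% (60.1 to 61.3) of the Csf1 UMIs of the KPC-shV-labelled library and 38.7% (38.0 to 39.4) of those of the KPC-shZEB1-labelled library, and fibroblast-like cells 16.1% and 24.6%. Tumour-like cells held 56.2% and 61.6% of the Il34 UMIs, and the unnamed cluster led by Prg4 and Grem1 18.9% and 9.40%. Tumour-like cells held 59.7% and 58.2% of the Csf2 UMIs, and T and NK cells 15.7% and 24.2%. Such shares follow cell numbers and cell size as well as level, and a loss of cells in dissociation cannot be told apart from fewer cells in the tumour.

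**Figure D3:**
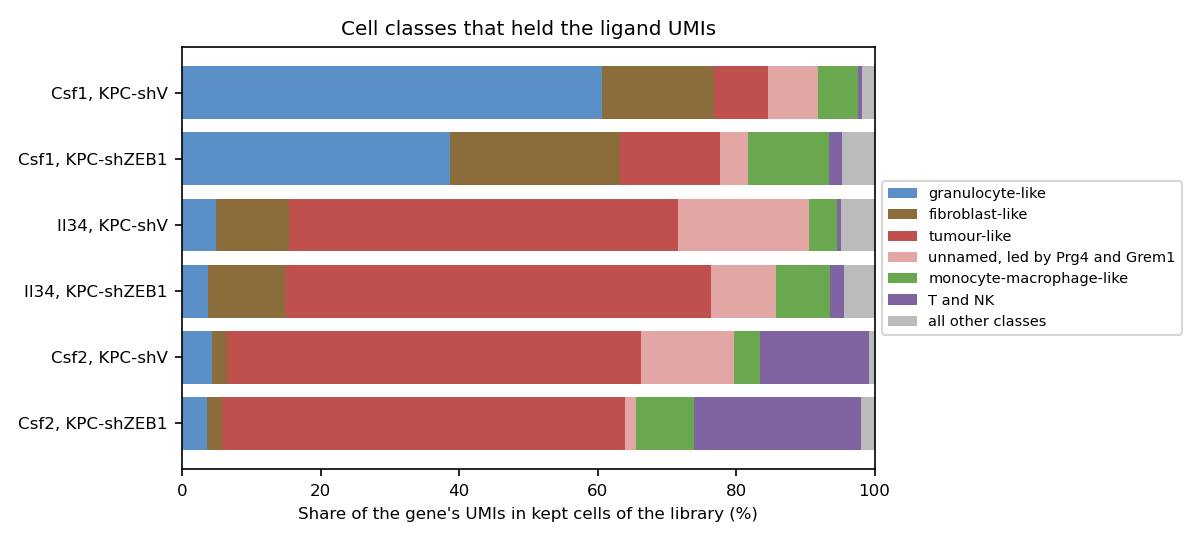
Share in percent of the Csf1, Il34 and Csf2 UMIs of each library that each cell class held, as stacked bars that add to 100%. Granulocyte-like cells take 60.7% and 38.7% of Csf1, and tumour-like cells take 56.2% and 61.6% of Il34 and 59.7% and 58.2% of Csf2.

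Barcodes above the limit of 60000 UMIs, which were left out, held many of the Il34 and Csf2 molecules. The 289 such barcodes of the KPC-shV-labelled library carried 1500 of its 3642 Csf2 UMIs (41.2%) and 35.9% of its Il34 UMIs. The 217 of the KPC-shZEB1-labelled library carried 610 of 2080 Csf2 UMIs (29.3%) and 31.2% of its Il34 UMIs. For Csf1 the shares were 11.1% and 11.0%. Their Csf2 level was 58.4 and 32.4 CPM, beside 59.2 and 26.8 in tumour-like cells.

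Csf1r (ENSMUSG00000024621, chromosome 18, 61100598 to 61132149, plus strand) was highest in the monocyte-macrophage-like class among the 9 larger classes. It stood there at 324 CPM (317 to 332) in the KPC-shV-labelled library and 385 (379 to 391) in the KPC-shZEB1-labelled library, a ratio of 1.19 (1.15 to 1.22). Of these cells, 85.1% and 91.4% had a UMI, and 27.9% and 31.5% after thinning to 1000 UMIs. Granulocyte-like cells held 52.0 and 81.0 and dendritic-like cells 39.5 and 60.7. The small mast or basophil-like class held 339 (236 to 471) and 273 (236 to 314), which in the first library overlapped the monocyte-macrophage-like level. Hmgxb3 overlaps Csf1r on the other strand, and the related kinase gene Pdgfrb ends 15537 bases before it on the same strand. Pericyte-like cells, with 667 and 693 CPM of Pdgfrb, had only 24.1 and 33.3 of Csf1r.

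Cells outside the myeloid classes also carried UMIs of these receptors, at a higher level in the KPC-shZEB1-labelled library. Whether such UMIs came from free RNA, doublets or the cells themselves was not tested. Their part in the myeloid ratios was looked at only by subtraction. Csf1r was at 17.9 and 33.4 in tumour-like cells, 17.2 and 30.9 in fibroblast-like cells, 14.5 and 30.0 in T and NK cells and 19.0 and 32.9 in B-like cells, with ratios of 1.86, 1.80, 2.07 and 1.74. Csf2ra in the same 4 classes lay between 7.90 and 11.8 in the first library and between 14.6 and 17.3 in the second. Csf2rb in them lay between 36.8 and 44.8 and between 49.3 and 65.6. In 9 of 9 classes with at least 30 cells in each library all 3 receptor genes were higher in the KPC-shZEB1-labelled library, though Csf2rb in monocyte-macrophage-like cells had a ratio of 1.0002, with an interval around 1 and 7 of 11 alternatives between 0.965 and 0.997, and Csf2rb in B-like cells turned to 0.867 without doublet removal. Outside the myeloid classes Csf1r and Csf2ra were the members most often 1.5-fold or more higher, and Csf2rb was not past that fold in those with at least 30 cells in each library. In fibroblast-like cells 5.84% of 12575 genes were higher and 5.18% lower by that fold, and of 6 members Csf1r and Csf2ra were higher and Csf2, at 4.12 and 2.69 CPM, lower, with an interval that includes 1 (0.39 to 1.06) and alternatives up to 1.27. In T and NK cells 6.99% of genes were higher, and Csf1r and Csf2ra of the 5 members. In B-like cells 10.8% of 8676 were higher and 2.94% lower, with Csf1r and Csf2ra higher and 0 lower of 4 members. In endothelial-like cells 8.8% of 8518 were higher and 4.79% lower, with the same pair higher and 0 lower of 4. With the fibroblast-like level taken off in each library, an alternative added after the data were seen, the Csf1r ratio was 1.15 in monocyte-macrophage-like cells and 1.44 in granulocyte-like cells.

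**Figure D4:**
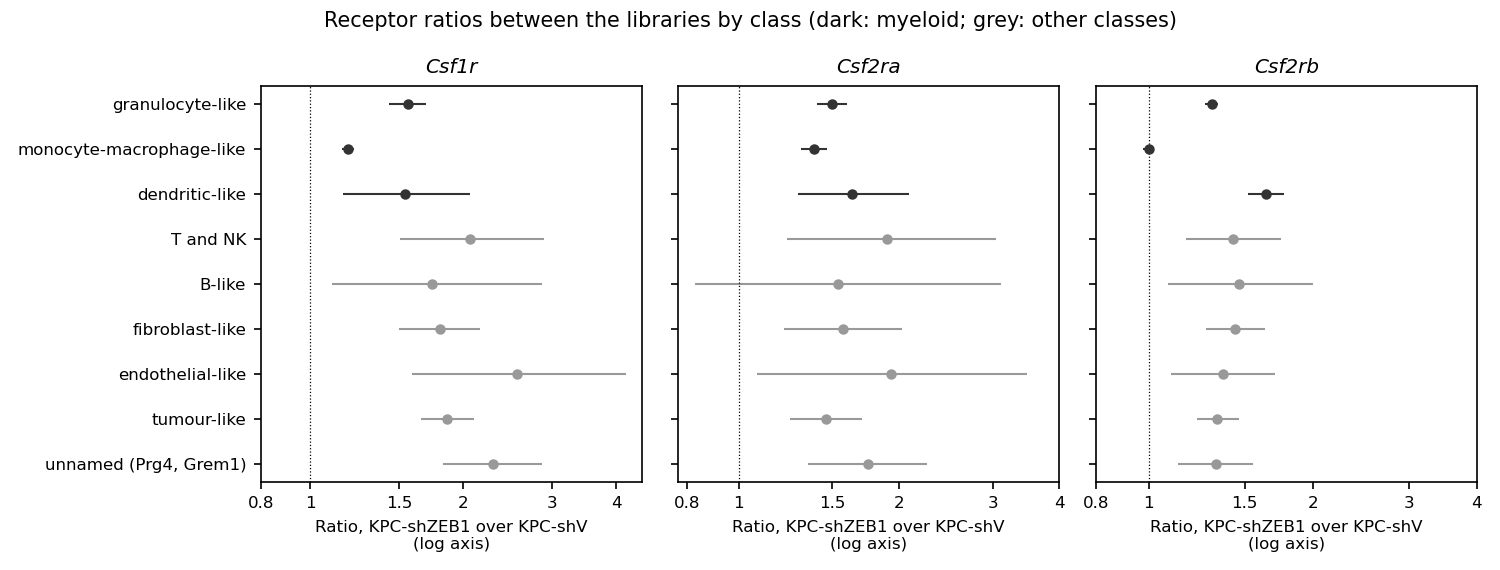
Ratio of CPM, KPC-shZEB1-labelled library over KPC-shV-labelled library (log axis), of Csf1r, Csf2ra and Csf2rb in 9 classes, with exact 95% intervals; dark points are myeloid classes, grey points the others, and the dotted line is 1. Csf1r is 1.19 in monocyte-macrophage-like cells and 1.74 or more in tumour-like, fibroblast-like, T and NK and B-like cells, and Csf2rb lies at 1.00 in monocyte-macrophage-like cells and at 1.64 in dendritic-like cells.

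Csf2ra (ENSMUSG00000059326, chromosome 19, 61223957 to 61228429, minus strand) is the chain that gives the receptor its specificity. Granulocyte-like cells held 87.1 CPM (83.3 to 91.0) and 130 (124 to 137), a ratio of 1.5 (1.40 to 1.60). Monocyte-macrophage-like cells held 77.8 (74.3 to 81.5) and 108 (105 to 111), a ratio of 1.39 (1.31 to 1.47). Dendritic-like cells held 56.6 (45.3 to 69.9) and 92.7 (84.2 to 102), a ratio of 1.64 (1.30 to 2.09). The order of the 3 classes was the same in both libraries, and the monocyte-macrophage-like and dendritic-like intervals did not overlap in either.

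Csf2rb (ENSMUSG00000071713, chromosome 15, 78325752 to 78353847, plus strand), the signalling chain, was at a similar level in the 3 myeloid classes of the KPC-shV-labelled library, 548 in dendritic-like, 543 in monocyte-macrophage-like and 536 in granulocyte-like cells, with overlapping intervals between neighbours. In the KPC-shZEB1-labelled library the classes were spread, with 899 (872 to 927) in dendritic-like, 699 (685 to 714) in granulocyte-like and 543 (536 to 550) in monocyte-macrophage-like cells. The ratios were 1.64 (1.52 to 1.77), 1.31 (1.27 to 1.34) and 1.00 (0.98 to 1.02). A neighbour on the other strand, Csf2rb2, encodes the interleukin-3-specific beta chain, and 28.0% of the 31-base words of the longest Csf2rb transcript also occur in the longest Csf2rb2 transcript, but 1.28% of those in its last 500 bases, where 3' tags mostly fall. Csf2rb2 ratios in the same 3 classes were 1.49, 0.92 and 1.04. The effect of reads that the pair could share on the split between them was not tested.

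The members in these 3 classes can be read against all genes. Among genes with at least 50 UMIs in granulocyte-like cells, 22.4% of 12471 were 1.5-fold or more higher in the KPC-shZEB1-labelled library, and 1 of the 6 members was, Csf1r at 1.56 (1.43 to 1.69), with Csf2ra just under the line. In monocyte-macrophage-like cells 8.44% of 13683 were, and 0 of 6 members, beside 10.2% in either direction. In dendritic-like cells 8.72% of 8678 were, with 4.89% lower, and 3 of the 4 members tested, Csf1r, Csf2ra and Csf2rb, with 0 lower. Of these, Csf1r stood at 39.5 and 60.7 CPM, beside 17.2 and 30.9 in fibroblast-like cells, whose ratio of 1.80 was the larger. It was under 2 times the fibroblast-like level in the second library, so that level was not taken off in dendritic-like cells. With each library clustered alone the Csf1r ratio there was 5.42 in place of 1.54. Among the 2777 genes with at least 50 CPM in granulocyte-like cells the median log2 ratio was 0.07. The median log2 ratio was 0.48 over the members and 0.27 over all tested genes in granulocyte-like cells, 0.12 and 0.04 in monocyte-macrophage-like cells, and 0.67 and 0.02 in dendritic-like cells.

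Granulocyte receptor levels differed between clusters. The Rdh12 and Cxcr2 cluster had the most Csf2ra, 107 and 151 CPM, and the Abca13 cluster the most Csf2rb, 676 and 782. The Mreg and Ccdc126 cluster was lowest of the 4 large clusters in both genes, with 65.0 and 82.9 for Csf2ra and 427 and 481 for Csf2rb. This cluster held 2777 granulocyte-like cells of the KPC-shV-labelled library and 776 of the other. With clusters weighted alike the Csf2rb ratio of the class was 1.16 and the Csf2ra ratio 1.37.

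Among macrophages the receptors for the different factors were unequal from sub-cluster to sub-cluster. The sub-cluster led by Lyve1, Bmp2 and Fcna, genes of tissue-resident macrophages, held 476 and 599 CPM of Csf1r and only 138 and 148 of Csf2rb. The sub-cluster led by Ccl8 and Fcrls held 494 and 515 of Csf1r with 319 and 213 of Csf2rb. At the other end, the sub-cluster led by Ear2 and Asgr2 held 264 and 243 of Csf1r with 845 and 901 of Csf2rb. The sub-cluster led by Adamdec1 and Ccl24 was high in both, with 375 and 417 of Csf1r and 857 and 908 of Csf2rb.

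Over the 14 macrophage-like and monocyte-like sub-clusters Csf1r ran from 209 to 494 in the KPC-shV-labelled library and from 237 to 599 in the KPC-shZEB1-labelled library, and Csf2rb from 138 to 857 and from 148 to 908. Pearson's r between the levels of Csf1r and Csf2rb over these 14 was -0.19 and -0.37 (Spearman's rho 0.05 and -0.20), and between Csf2ra and Csf2rb 0.68 and 0.82 (rho 0.68 and 0.77), as a description of sub-clusters that share their library and were not sampled independently. Csf2rb in the Ccl8 sub-cluster was lower in the KPC-shZEB1-labelled library, at a ratio of 0.67 (0.61 to 0.73), while in the Ear2 sub-cluster it was 1.07 (1.01 to 1.13). The class ratio of 1.00 joined such opposite values.

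**Figure D5:**
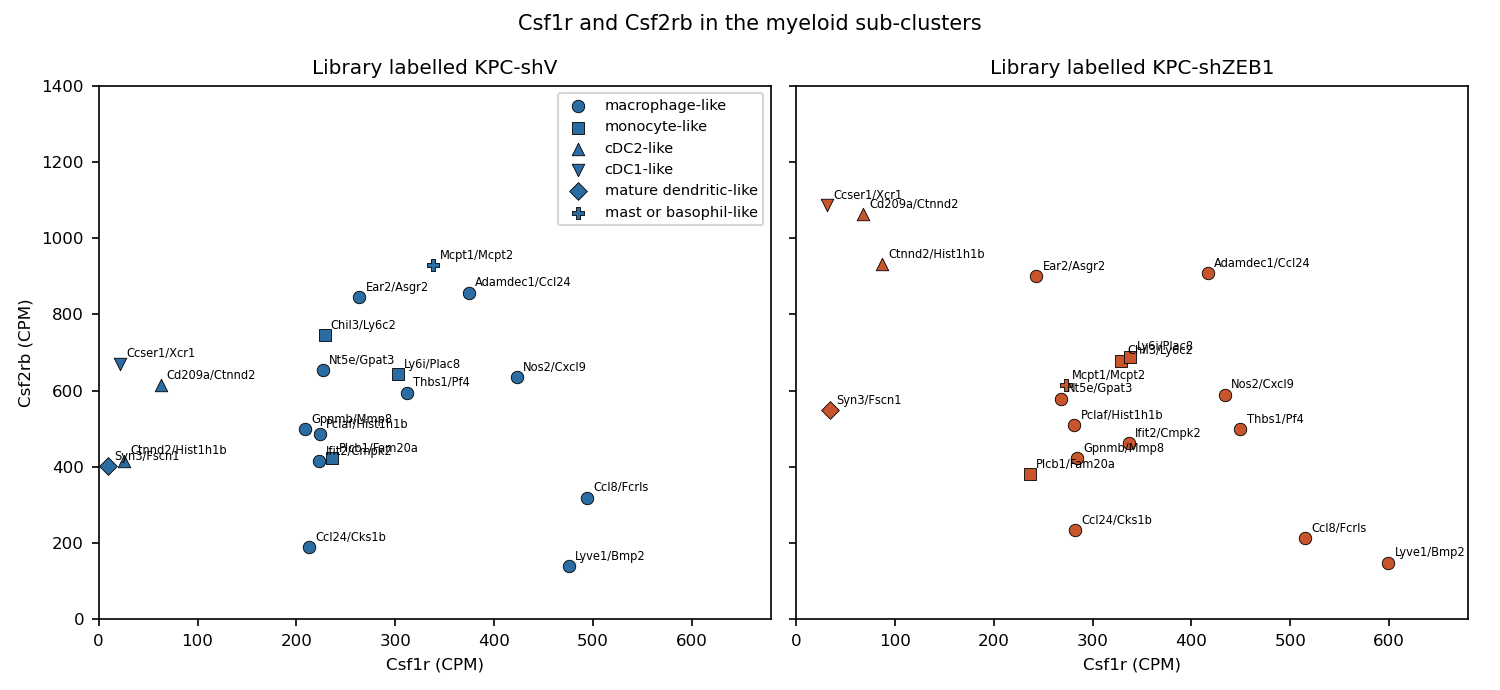
Csf1r against Csf2rb, both in CPM on linear axes, in the 19 myeloid sub-clusters of each library, labelled by their first 2 leading genes; shapes mark the names given to the sub-clusters. The Lyve1 sub-cluster is at the lower right in both libraries, 476 and 138 in the first and 599 and 148 in the second, and dendritic-like sub-clusters lie at the left.

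Dendritic-like cells were highest in Csf2rb in the KPC-shZEB1-labelled library only, and lower in Csf1r than monocyte-macrophage-like cells in both. The cDC2-like cells, conventional dendritic cells that prime CD4 T cells, held 557 CPM of Csf2rb from 44 cells and 1032 from 159 cells, a ratio of 1.85 (1.66 to 2.07). The cDC1-like cells, which cross-present antigen, held 671 from 12 cells and 1086.5 from 35 cells, a ratio of 1.62 (1.38 to 1.91). Mature dendritic-like cells held 401 and 549. Csf1r in cDC1-like cells was 21.8 (7.99 to 47.4) and 31.4 (20.3 to 46.4), and both intervals covered the levels of tumour-like, fibroblast-like, T and NK and B-like cells.

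Both receptor chains were found together in a cell in all 3 myeloid classes, at shares that moved with depth. Of monocyte-macrophage-like cells, 50.2% (47.8 to 52.6) and 61.4% (59.5 to 63.3) had a UMI of both Csf2ra and Csf2rb, at median depths of 12654 and 14045 UMIs. Of granulocyte-like cells 16.8% (15.9 to 17.7) and 23.3% (22.0 to 24.6) had both, at 3147 and 2911 UMIs. After thinning to 1000 UMIs the shares were 2.65% (1.94 to 3.53) and 3.56% (2.88 to 4.36) in monocyte-macrophage-like cells and 3.23% (2.83 to 3.68) and 4.99% (4.36 to 5.68) in granulocyte-like cells, so the classes no longer stood far apart. In dendritic-like cells they were 0.971%, from 1 of 103 cells, and 3.58%. In tumour-like cells, taken as the background, the thinned shares were 0.104% and 0.248%. The product of the single-gene shares is what detection independent of each other would give. It was 1.95% and 3.07% in thinned monocyte-macrophage-like cells and 2.91% and 4.66% in thinned granulocyte-like cells. Each of these was below the observed share but inside its interval. In thinned dendritic-like cells the product was 2.21% and 2.75%, above the observed share in the first library and below it in the second. Both lay inside the intervals, 0.0246 to 5.29 and 1.80 to 6.32. The thinned counts of these 3 classes therefore do not separate joint from independent detection. In thinned macrophage-like cells of the KPC-shV-labelled library the product was 1.58%, below the observed 2.45% (1.69 to 3.43). Without thinning it was 44.2% and 56.6% in monocyte-macrophage-like and 15.8% and 21.8% in granulocyte-like cells, each below the interval. In dendritic-like cells it was 49.0% and 57.4%, inside 38.6 to 58.6 and 53.2 to 64.5. The part that unequal depth of cells has in this was not tested.

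The other genes of the pathway were read as 4 lists of named genes. In monocyte-macrophage-like cells, 0 of 15 signal transduction genes (Jak2, Stat5a, Tyrobp and others) and 0 of 10 monocytic lineage factors (Spi1, Irf8, Cebpa and others) passed 1.5-fold, with medians of -0.01 and -0.04 log2 beside 0.04 for all tested genes. These and the next counts are read beside the 8.44% of all tested genes that were higher. Of 10 GM-CSF response genes 1 did, Ccl22, a chemokine of alternatively activated macrophages, at 1.56 (1.42 to 1.72). Of 10 related cytokine and receptor genes 4 were higher, led by Il5ra at 2.42 (1.60 to 3.78), Kit at 2.40 (1.93 to 3.02) and Csf3 at 1.55 (1.34 to 1.80), and these 3 were at or under 17.2 CPM in either library.

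In granulocyte-like cells the medians of all 4 lists and of all tested genes were above 0. Over all tested genes 22.4% were higher, and of 15 signal transduction genes 4 were, a share near that, led by the ubiquitin ligase gene Cblb at 2.78 (2.49 to 3.12), Pik3r5 at 1.73 (1.58 to 1.90) and Stat5a at 1.70 (1.35 to 2.14), with a list median of 0.33 beside 0.27 for all genes. Of 10 GM-CSF response genes 2 were, also near the share of all genes, Ccl22 at 5.51 (3.98 to 7.76) and Ccl17 at 3.94 (3.28 to 4.75), with a list median of 0.14. Both chemokines are known products of dendritic cells, though not of these alone, and Ccl17 was also a leading gene of the macrophage-like sub-cluster led by Ear2. Ccl17 had a ratio of 3.72 in fibroblast-like cells as well (5.68 and 21.1 CPM, against 7.31 and 28.8 in granulocyte-like cells). Cish, a feedback gene induced through Stat5, stood at 143 and 125, a ratio of 0.88 (0.83 to 0.93). Of 10 monocytic lineage factors 5 were higher, led by Irf8 at 2.24 (1.93 to 2.60), Cebpa at 1.90 (1.33 to 2.73) and Maf at 1.69 (1.44 to 1.98), and Irf8 had a ratio of 2.21 in fibroblast-like cells. Of 9 related genes 3 were higher, led by Il5ra at 4.12 (2.59 to 6.71), Il3ra at 2.29 (1.64 to 3.21) and Csf3 at 1.90 (1.60 to 2.27). The part that free RNA has in these values was not tested.

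In dendritic-like cells, 0 of 15 signal transduction genes passed 1.5-fold, with a median of -0.07 beside 0.02, where 8.72% of all tested genes were higher and 4.89% lower. Of 10 GM-CSF response genes 2 were higher, Pparg, a nuclear receptor of lipid handling, at 2.59 (1.29 to 5.89) and the survival gene Bcl2l1 at 1.70 (1.43 to 2.03). Of 7 related genes Csf3r, the receptor of G-CSF, was lower at 0.44 (0.34 to 0.57), and Il3ra was higher at 1.57 with an interval of 0.85 to 3.11. Csf3r is a granulocyte transcript, and its ratio in fibroblast-like cells was 0.59 (0.51 to 0.69). Of 9 monocytic lineage factors 1 was higher, Klf4 at 1.59 (1.28 to 1.99).

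The genes most like each member over 22 class profiles (classes with at least 30 cells in a library, log2 of CPM plus 1, among 15067 genes) were named as a description. Csf1r was nearest to Fcgr1 (Pearson's r 0.97), Ccl9 (0.96) and C3ar1 (0.95). Csf2ra and Csf2rb were in each other's nearest 3 (0.97), with Gpr35 and Cd300a nearest to both, at 0.98 and 0.97 for Csf2ra and 0.97 and 0.98 for Csf2rb. Il34 was nearest to Steap1 (0.94), Cdc42ep5 (0.91) and Ptprf (0.90), Csf2 to Acsbg1 (0.89), Nrn1 (0.86) and Styk1 (0.86), and Csf1 to Atg9a (0.90), Cldn11 (0.90) and Ddit3 (0.89). Profiles of the same class in both libraries share their cells' identity, so these 22 points are not independent.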

How the data were processed

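The deposited files are raw UMI counts for every gene in every barcode. Cell Ranger 7.0.1 and the mm10 build produced them, per the labels, and whether intron reads were counted is not given in the sources used here. By the study's limits, barcodes were kept with 500 or more genes, a total between 1000 and 60000 UMIs, and no more than 15% of UMIs from mitochondrial genes, which left 11713 and 12447 cells of 12594 and 13271 barcodes with 130941086 and 143461224 UMIs. Scrublet scores (scanpy 1.11.5) above 0.2 removed 315 (2.69%) and 343 (2.76%) as doublets, a threshold set after the scores were seen. Joint clustering used Leiden (leidenalg 0.10.2, resolution 1) over 20 nearest neighbours in 30 principal components, from 3000 variable genes that excluded the members and list genes. Clusters were named from marker lists by rules adjusted after seeing the clusters. T, NK and ILC2 cells were pooled as T and NK, and this class was clustered again, as were the dendritic-like with the monocyte-macrophage-like cells, on 20 components of 2000 genes at resolution 1.5. The study used DoubletFinder, SCTransform and Harmony, so its cell names may differ.

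UMIs were summed per class and library. Counts carry exact Poisson intervals, shares exact Clopper-Pearson intervals, and ratios the exact interval conditional on the summed count (scipy 1.17.1). These cover counting error only. No test was made, since each group is 1 library, and the interval code was tested on simulated data. The members, lists and comparisons were chosen with earlier results of these data known. All 6 members were measured in every class, and the text gives the classes with the highest levels and a background class, with the rest as ranges or in the plots. From each list, genes with at least 50 UMIs over both libraries were counted at 1.5-fold and at most 3 named in each direction in the myeloid classes, and the 3 genes most like each member were named. Cish, the fibroblast-like values of Csf3r, Irf8 and Ccl17, and leading genes of clusters were named after their values were seen. Coordinates are 1-based on GRCm38 from GENCODE M21.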

Additional observations from a re-analysis of the deposited data

Results flagged for a closer look

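Csf2rb went opposite ways in 2 classes. In dendritic-like cells its ratio, KPC-shZEB1-labelled over KPC-shV-labelled library, was 1.64 (1.52 to 1.77), and in mast or basophil-like cells it was 0.660 (929 and 614 CPM). The latter class had 7 and 45 cells, and the difference was not tested.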

How the results depend on the processing

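Of 212 alternatives to 29 main values, 156 stayed within the counting interval and 56 moved out of it, and of 392 alternatives to 41 further values 360 stayed, 26 moved and 6 turned. A value is called turned where its main interval excluded 1 and the alternative lay on the other side of 1. For ratios, 12 alternatives to the main values and 19 to the further ones lay on the other side, the turned ones included. Those whose main interval includes 1 are Csf1 in tumour-like (down to 0.904), B-like (0.829), endothelial-like (0.908), dendritic-like (up to 1.19) and T and NK cells (1.10), Csf2 in fibroblast-like (1.27) and monocyte-macrophage-like cells (1.22), Csf2rb in monocyte-macrophage-like cells (down to 0.965), and Il34 over all cells (1.09), in dendritic-like (1.17) and in B-like cells (1.01), so no direction is read from these. The turned values were Il34 in tumour-like cells (1.10 with limits of 200 genes and 500 UMIs, 1.01 with each library clustered alone, 1.05 as a mean over cells, 1.08 with clusters weighted alike, 1.09 with the Prg4 cluster counted as tumour-like) and Csf2rb in B-like cells (0.867 without doublet removal). Weighting clusters alike, taking off the background, leaving out 5 cells and counting the Prg4 cluster as tumour-like were chosen after seeing the data, as were the alternatives for Csf1 and Csf1r in granulocyte-like, Csf2 in tumour-like and Csf2rb in dendritic-like cells.

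Weighted alike, the granulocyte-like ratios were 0.785 for Csf1, 1.37 for Csf2ra and 1.16 for Csf2rb, and the tumour-like ratios 0.904 for Csf1 and 0.560 for Csf2. Relative to the median gene, granulocyte-like Csf1 was 0.819 and Csf2rb 1.24. Less the background, monocyte-macrophage-like Csf1r was 1.15 and Csf2rb 0.965, and tumour-like Csf1 0.986. As a mean over cells, Csf2rb was 1.03 in monocyte-macrophage-like and 1.52 in dendritic-like cells, Csf2 0.562 in tumour-like and 0.294 in T and NK cells, and Il34 1.09 over all cells. With each library clustered alone, dendritic-like Csf2rb was 2.26 and tumour-like Csf1 1.15. With the lower limits, and with the Prg4 cluster as tumour-like, tumour-like Csf1 was 0.978 in both cases and Csf2 0.544 and 0.532. With members allowed in the clustering tumour-like Csf2 was 0.411, and without 5 cells T and NK Csf2 was 0.670.

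Shares of the ligand UMIs moved with the limits (library labelled KPC-shV, then KPC-shZEB1). With no upper UMI limit they were 53.9% and 34.4% for Csf1 in granulocyte-like cells, 65.1% and 68.2% for Il34 and 76.2% and 69.3% for Csf2 in tumour-like cells, and 9.15% and 17.1% for Csf2 in T and NK cells. Fibroblast-like Csf1 was then 17.7% in the first, and 15.2% at resolution 2 or with each library alone. Without doublet removal granulocyte-like Csf1 was 60.0% and 37.0%, T and NK Csf2 13.2% and 18.9%, and tumour-like Csf2 65.0% in the first. With the lower limits, or the Prg4 cluster added, tumour-like Il34 was 75.1% and 71.0% and Csf2 73.2% in the first. Tumour-like Csf2 in the first was 65.4% at resolution 2 and 65.1% with members allowed. With each library alone the second gave 40.5% for granulocyte-like Csf1, 65.0% for tumour-like Il34 and 55.5% for tumour-like Csf2. Thinned shares with both receptor chains were 2.65% and 3.56% in monocyte-macrophage-like, 3.23% and 4.99% in granulocyte-like and 0.971% and 3.58% in dendritic-like cells. The cause of these moves was not tested.

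No paired analysis was possible because each group is 1 library. Genes with few UMIs and classes with few cells limit what differences are detectable at this depth.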
